A study of Mus musculus with 8 samples.

Results

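The granins are acidic proteins of the dense-core secretory granule, and 6 of their genes were followed here by symbol through all 8 plates of a single-cell study of mouse enteroendocrine cells: Chga, Chgb, Scg2, Scg3, Scg5 and Vgf. They are 6 of the 16115 genes listed for every reporter line, and all 6 were found on every line. The study asked what BMP4, a ligand of the bone morphogenetic protein pathway, does to hormone-secreting cells of intestinal organoids. Organoids of C57BL/6 mice carried a fluorescent hormone reporter; their reporter-positive cells were sorted singly into wells and sequenced by SORT-seq, which counts each messenger RNA once through a molecular identifier at its 3′ end.

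Plates with 3 conditions (untreated, BMP4 for 24 h, BMP4 for 4 d) came from the Gcg line (2 plates), the Gip line (1 plate) and the Tac1 line (2 plates), and a further 3 Tac1 plates held 1 condition each (1 of 24 h, 2 of 4 d). The sample titles call the Gip and Tac1 lines Cre lines and the Gcg line a Venus line; a Cre label can persist in cells that no longer use the driving gene. The labels do not say whether plates came from separate cultures, so the p-values measure only how plates vary, and part of that may be technical. A well was used if it held at least 2000 transcripts (1006 of 3072 wells), and its transcripts were summed with those of its plate and condition.

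Those sums held 98166 to 1251850 transcripts, from 16 to 135 cells, apart from the 9 cells of Tac1 plate 2 at 24 h, whose values are given but not tested. The plates matched their labels in hormone content: Gcg reached 2120 to 77634 CPM (counts scaled to a common total per sum) on Gcg plates, Gip 117450 to 151810 CPM on the Gip plate and Tac1 143 to 3175 CPM on Tac1 plates, against at most 358, 24225 and 42.2 CPM on the plates of the other lines. All sums held most of an 18-gene enteroendocrine marker list, 14 to 17 genes, at 4415 to 11670 CPM in total. Clustering without granins or hormones placed 784 cells in enteroendocrine-like clusters, 62 in an enterocyte-like and 25 in a goblet-like cluster, and left 135 unnamed, 102 of them in a cluster with the nuclear RNA Kcnq1ot1 among its leading genes.

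Chromogranin A (Chga) and chromogranin B (Chgb) are the abundant soluble matrix proteins around which dense-core granules form, and Chga is the classical marker of enteroendocrine cells. Secretogranin II (Scg2) is the precursor of secretoneurin. Secretogranin III (Scg3) tethers chromogranin A to the granule membrane, Scg5 (7B2) is the chaperone of prohormone convertase 2, and Vgf is a growth-factor-inducible precursor of several neuropeptides. In the gut, these proteins are stored and released together with peptide hormones and, in enterochromaffin cells, with serotonin.

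In the GENCODE M21 annotation of GRCm38 the genes lie apart from each other: Scg2 at chr1:79434669-79440120 (minus strand), Scg5 at chr2:113776362-113829121 (minus), Chgb at chr2:132781278-132795079 (plus), Vgf at chr5:137026392-137033351 (plus), Scg3 at chr9:75643189-75684056 (minus) and Chga at chr12:102554969-102565028 (plus). All are protein-coding, and the chromosome in the deposited gene names was the same for each. Only Scg3 overlaps another annotated gene, the unconfirmed Gm37871 on the other strand, whose reads could not be separated from it if strand was ignored.

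Chga, Chgb and Scg2 are known as genes driven by a cAMP response element near their start, so the letters around that element are shown for the 5 granins that have a RefSeq promoter entry (GRCm38.p6). Each line gives 30 bases on the gene's own strand, 5′ to 3′, with capitals on TGACGTCA, the full element, or on its core TGACG where only the core was present.
Chga: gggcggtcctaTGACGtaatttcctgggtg
Chgb: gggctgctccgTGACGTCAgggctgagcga
Scg2: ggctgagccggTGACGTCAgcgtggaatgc
Scg3: cgctgggtcgcTGACGccatcctcacgcct
Scg5: aaggaggtaaaTGACGttcataggggtcga
These windows lie at chr12:102554886-102554915 (Chga), chr2:132781559-132781588 (Chgb), chr1:79440076-79440105 (Scg2), chr9:75684068-75684097 (Scg3) and chr2:113829248-113829277 (Scg5). The capitals start 44, 72, 68, 30 and 175 bases before the RefSeq start, in that order of genes. GENCODE starts Chgb and Scg2 364 and 94 bases further upstream, so that these 2 windows lie inside its gene models. TGACGTCA, which reads the same on both strands, stood in the 250 bases upstream of Chgb and Scg2, against 1.55% of 32851 mouse promoters searched alike. TGACG or its reverse complement CGTCA, which the full element contains, stood in all 5, against 17.8% of promoters. A match is a description of the letters only, and Chgb and Scg2, which share the full element, had opposite patterns over the reporter lines.

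The reporter lines held very different granins before any BMP4. Untreated Gcg cells had far less Chga and Chgb than untreated Tac1 cells, less Vgf, Scg3 and Scg5, and far more Scg2. All 6 granins passed in this comparison at an adjusted p under 0.05 (edgeR quasi-likelihood test on the 5 untreated sums, Benjamini-Hochberg over 9168 genes), 1 higher and 5 lower, in a comparison where 16.4% of all genes passed (8.79% higher, 7.66% lower). The files of the Gcg and Gip plates also list no mitochondrial genes while those of the Tac1 plates do, so reporter line and manner of file preparation cannot be told apart.

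Chga was at 463 and 699 CPM on the untreated Gcg plates and 227 CPM on the Gip plate, against 22214 and 25057 CPM on the untreated Tac1 plates. No Gcg or Gip sum came near a Tac1 sum. The log2 difference of Gcg against Tac1 was -5.35 ± 0.81 (SE, adjusted p = 2.0e-05, edgeR). Chgb stood at 1506 and 4134 CPM on untreated Gcg plates and 2715 CPM on the Gip plate, against 57118 and 55746 CPM on Tac1 plates, a log2 difference of -4.34 ± 0.99 (adjusted p = 0.0024, edgeR). The untreated groups did not overlap for either chromogranin, a pattern whose share over all genes was not counted. In sums of cells, fewer cells of a type and less RNA per cell cannot be told apart.

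Scg2 had the opposite order. It reached 1197 and 2032 CPM on untreated Gcg plates and 1532 CPM on the Gip plate, against 173 and 9.59 CPM on untreated Tac1 plates, the last value resting on 1 transcript. The log2 difference was 3.76 ± 0.57 (adjusted p = 1.8e-05, edgeR; 0.064 with DESeq2). Its size rested on the Tac1 plates: the Scg2 difference was 3.13 without plate 2 and 7.39 without plate 1, which leaves the 1 transcript of plate 2. In Tac1 cells the little Scg2 present came from few cells: 10 of 68 untreated cells of Tac1 plate 1 had a Scg2 transcript among 2000, and 0 of 16 on plate 2.

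Vgf was a low-abundance granin throughout, at 28.1 and 25.3 CPM on untreated Gcg plates and 56.9 CPM on the Gip plate, against 160 and 163 CPM on untreated Tac1 plates. Its log2 difference was -2.59 ± 0.41 (adjusted p = 3.3e-05, edgeR), and it was -1.09 with an adjusted p of 0.45 when every cell was thinned to 2000 transcripts.

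Scg3 and Scg5 were the even members of the family. Scg3 was at 143 and 189 CPM on untreated Gcg plates and 363 CPM on the Gip plate, against 356 and 355 CPM on Tac1 plates. Scg5 was at 189 and 187 CPM on untreated Gcg plates and 508 CPM on the Gip plate, against 442 and 470 CPM on Tac1 plates. The log2 differences of Gcg against Tac1 were -1.11 ± 0.35 for Scg3 (adjusted p = 0.026, edgeR) and -1.27 ± 0.35 for Scg5 (adjusted p = 0.012, edgeR). The Scg3 call was lost without Gcg plate 1 (adjusted p = 0.15), without Tac1 plate 1 (0.083), with DESeq2 (0.094), with thinned cells (0.11) and with no filter on low counts (0.055). The Scg5 call was lost without Gcg plate 2 (0.055).

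**Figure D1:**
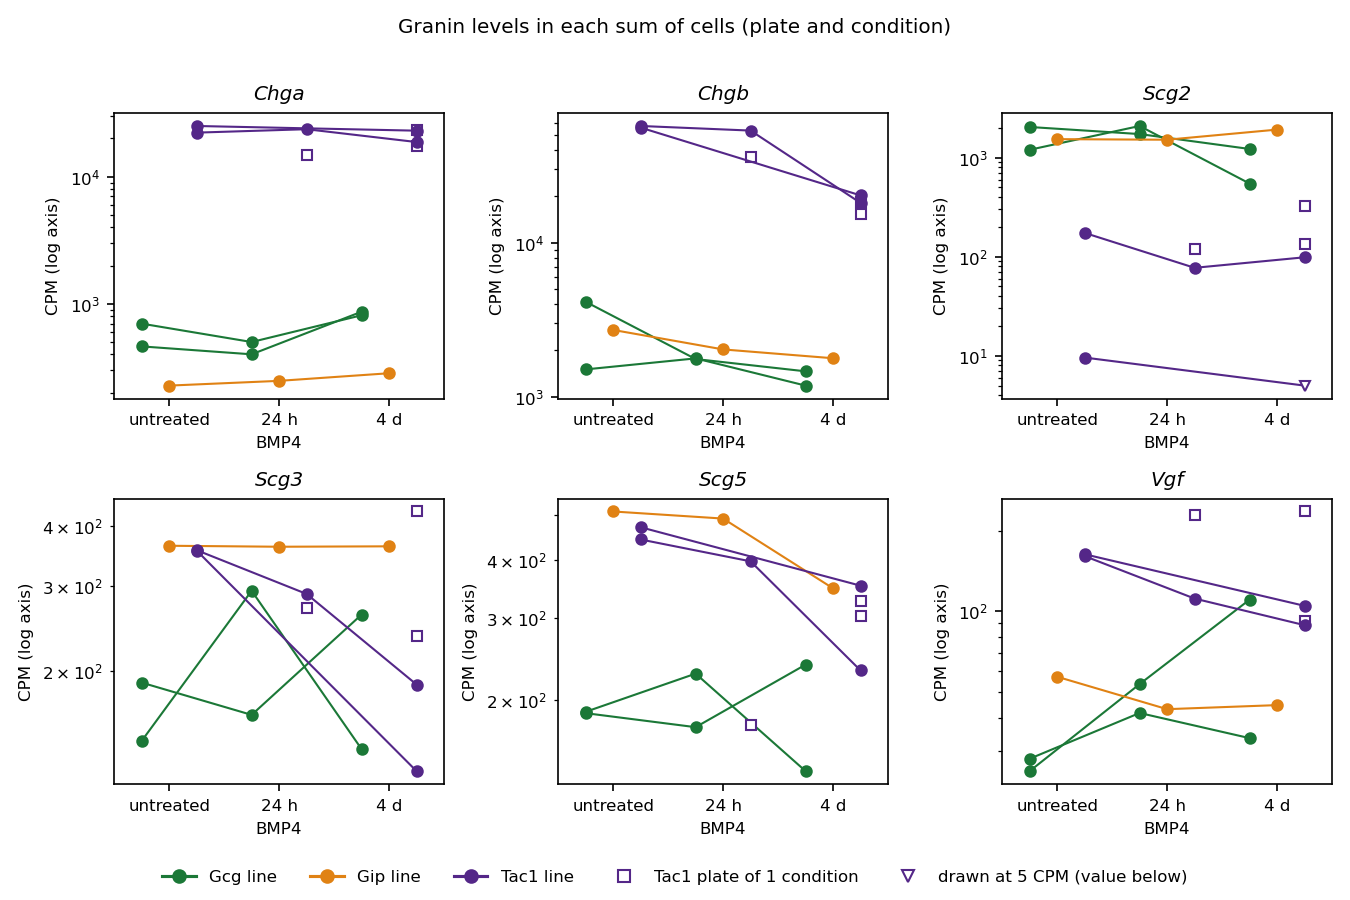
Each panel plots 1 granin as CPM (log axis) against BMP4 condition, 1 point per sum of at least 10 cells, with lines joining the sums of 1 plate. Green, orange and violet mark the Gcg, Gip and Tac1 lines, open squares the Tac1 plates of 1 condition, and the open triangle a value of 0 CPM drawn at 5 CPM. Chga and Chgb of the Tac1 line lie at 14793 CPM or more in every sum and those of the other lines at 4134 CPM or less, Scg2 runs the other way, and Chgb of the Tac1 line is lowest at 4 d.

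Other cell types were unequally present on these plates. The 12-gene enterocyte list summed to 23160 and 30030 CPM on untreated Gcg plates, with all 12 genes found, against 826 and 1699 CPM on untreated Tac1 plates, with 7 and 8 found. The 8-gene goblet list summed to 2707 and 12730 CPM on untreated Gcg plates, against 1989 and 2819 CPM on untreated Tac1 plates. Paneth and tuft lists of 5 genes each reached at most 213 and 219 CPM in any sum. In sums of the enteroendocrine-like clusters alone all 6 granins passed as well, 1 higher and 5 lower, with a median log2 difference of -1.61. There 1759 of 8547 genes passed in all, 832 higher and 927 lower. Within enteroendocrine-like clusters, thinned to 2000 transcripts, a cell averaged 2.61 Chga, 6.09 Chgb and 3.69 Scg2 transcripts in the Gcg line (286 cells), 0.47, 3.75 and 3.43 in the Gip line (206 cells), and 43.8, 78.0 and 0.221 in the Tac1 line (285 cells). Within this class too, Chga and Chgb were highest and Scg2 lowest in the Tac1 line. Of the enteroendocrine-like cells of the Gcg line (median 9997 transcripts), 58.4% had a Chga, 71.7% a Chgb and 86.7% a Scg2 transcript among 2000. The background share, in its 57 enterocyte-like cells (median 17370 transcripts), was 10.5% for Chga, 3.51% for Chgb and 7.02% for Scg2, and 0% for Scg3, Scg5 and Vgf.

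An enteroendocrine-like cell showed about the same number of different granins on every plate, a mean of 2.77 to 3.47 of the 6 per sum at 2000 transcripts, but not the same amount. Summed, the 6 granins took 4.18% to 7.57% of the transcripts of these cells on Tac1 plates, against 0.431% to 0.908% on Gcg and Gip plates. Since each transcript gives 1 tag whatever its length, levels of the granins can be compared with each other: Chgb was the most abundant in untreated Tac1 cells, whereas on the untreated Gip plate Chgb and Scg2 led and Chga was below Scg3 and Scg5.

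Granin content was also compared by the hormone that led in a cell. A leading hormone had at least 10 transcripts of 2000 and at least 50% of the summed hormone transcripts. The comparisons are descriptions over cells, with exact Poisson 95% intervals that cover counting error only, and 73 cells lay between 45% and 55%. On the Gip plate, Gip-led cells (209) averaged 3.34 Scg2 transcripts per 2000 (3.09 to 3.59), against 0.962 (0.714 to 1.27) in somatostatin-led cells (Sst, 52). Scg2 was higher in the Gip-led cells in each of the 3 conditions, at 3.81 against 0.818 untreated, 3.49 against 0.529 at 24 h and 3.02 against 1.33 at 4 d. Chgb did not part these cells, at 3.02 (2.79 to 3.27) in Gip-led and 3.23 (2.76 to 3.76) in Sst-led cells.

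On the Gcg plates the leading hormone and the condition went together: 66 of 95 Gcg-led cells were untreated and 49 of 84 neurotensin-led cells (Nts) were from 4 d. Among untreated cells, Chga averaged 3.0 transcripts per 2000 (2.13 to 4.10) in Nts-led cells (13) and 0.788 (0.588 to 1.03) in Gcg-led cells (66), whereas Chgb was 4.08 (3.05 to 5.33) and 4.12 (3.65 to 4.64) and Scg2 2.92 (2.07 to 4.01) and 4.47 (3.97 to 5.01). The same hormone did not bring the same granins in every line: Gip-led cells averaged 0.474 Chga and 4.63 Scg2 transcripts on Gcg plates (19 cells), 0.431 and 3.34 on the Gip plate, and 4.24 and 1.53 on Tac1 plates (17 cells). Sst-led cells of Tac1 plates (98) averaged 39.6 Chga and 74.7 Chgb transcripts, against 0.269 and 3.23 in those of the Gip plate. The 189 Tac1 cells with no leading hormone had about as much, 43.7 Chga and 70.0 Chgb, so neither chromogranin set the Sst-led cells apart there. Sst-led cells numbered 20 to 23 per condition on Tac1 plate 1, 32 on the Tac1 plate of 24 h and 0 on Tac1 plate 2. The name Sst-led gives the leading transcript only, and whether these are somatostatin cells was not tested.

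**Figure D2:**
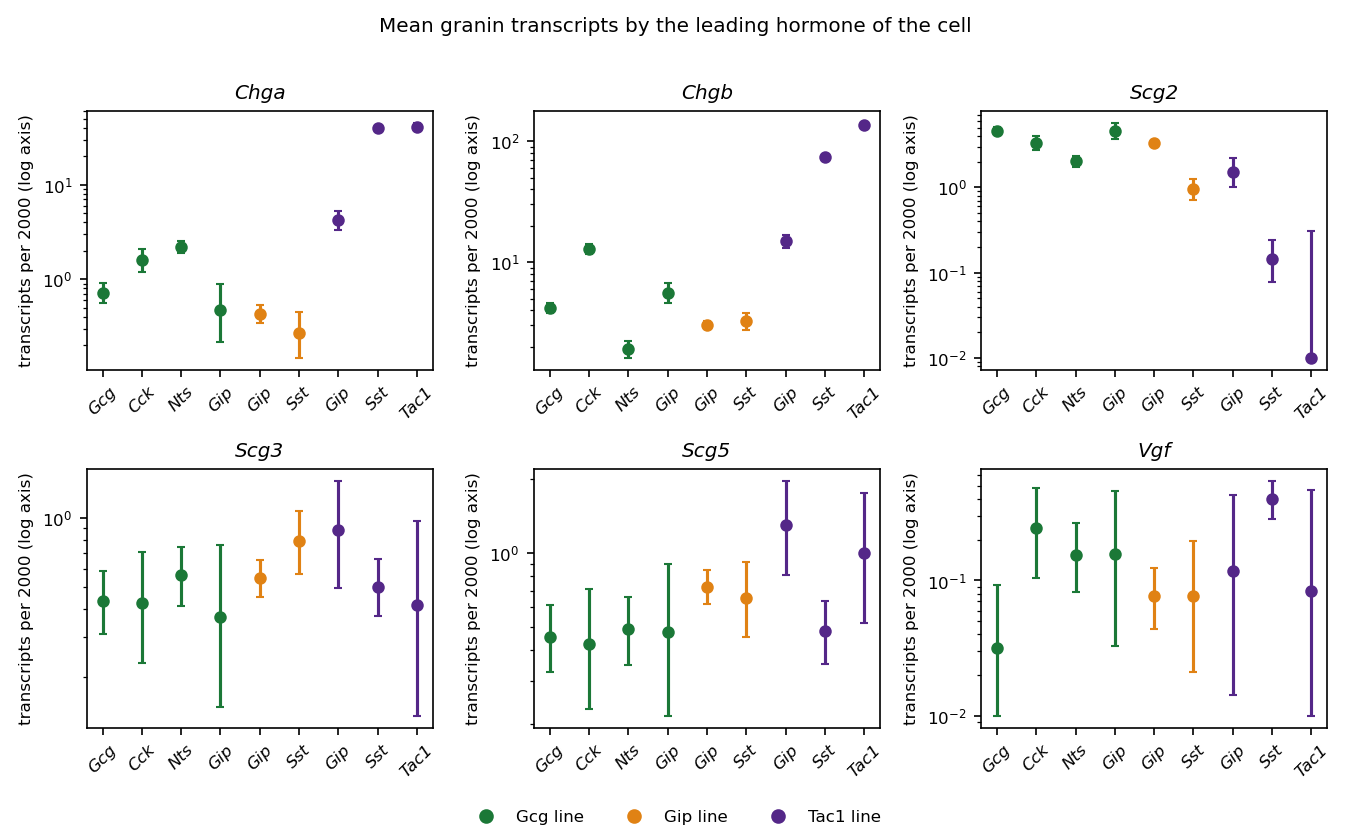
Each panel gives the mean number of transcripts of 1 granin per 2000 (log axis) in cells led by the hormone named on the x axis, all conditions together, with exact Poisson 95% intervals over at least 12 cells per point and colours for the reporter line. Values and interval ends below 0.01 are drawn at 0.01. Scg2 is lower in Sst-led than in Gip-led cells of the Gip line. Among the classes plotted, Chga and Chgb stand highest in Sst-led and Tac1-led cells of the Tac1 line. Cells with no leading hormone are not plotted.

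After BMP4, none of the 6 granins passed the test over all plates. At 24 h, 0 of 6 passed with edgeR (0.0963% of 8308 genes passed) and 0 of 6 with DESeq2 (18 genes). At that time 0 of 6 had an unadjusted p under 0.05 (214 genes, edgeR). At 4 d, 0 of 6 passed with edgeR (3.33% of genes passed). An unadjusted p under 0.05 was held by 1 of 6, near the share of all genes (1259 of 8308, edgeR). With DESeq2 1 of 6 passed (371 of 8308 genes), in both cases Chgb. The median log2 change of the 6 was -0.19 at 4 d, against -0.0041 over all genes tested. Counts were also simulated with the same design, with changes set only in genes above a minimum mean count. The fit recovered 36.4% of genes changed by log2 1 and 94.9% of those changed by log2 2. Changes of the size seen for most granins could thus be missed. The same fit made 12 false calls among 7871 genes.

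Chgb came nearest to a call. Its level on the Tac1 plates was 57118 CPM untreated, 53326 CPM at 24 h and 18110 CPM at 4 d on plate 1, and 55746 CPM untreated, 30588 CPM at 24 h (9 cells) and 20256 CPM at 4 d on plate 2. The Tac1 plates of 1 condition had 36094 CPM at 24 h and 15314 and 18374 CPM at 4 d. All 4 Tac1 sums at 4 d lay below all other Tac1 sums, a pattern whose share over all genes was not counted.

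The Gcg plates had 1506, 1776 and 1183 CPM of Chgb on plate 1 and 4134, 1758 and 1464 CPM on plate 2 (untreated, 24 h, 4 d), and the Gip plate 2715, 2030 and 1779 CPM. Chgb was thus lower at 4 d than untreated on 5 of 5 plates, by log2 values of -0.22 to -1.49 per plate. Its pooled log2 change was -0.92 ± 0.31 (SE, adjusted p = 0.15, edgeR), lower than that of all but 3.09% of genes. The adjusted p was 0.012 with DESeq2, 0.0042 with no filter on low counts and 0.039 without Gcg plate 1, and reached 0.40 among the other alternatives.

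Within the Tac1 line the log2 change of Chgb at 4 d was -1.30 ± 0.47 (adjusted p = 0.24, edgeR), where 0 of 6 granins and 2.01% of genes passed (1.46% higher, 0.554% lower). It was -1.53 (adjusted p = 0.10) with the Tac1 plates of 1 condition added and no plate block. It was -1.44 in enteroendocrine-like clusters alone, where plate 2 at 4 d drops out with 9 such cells. Chgb passed with no filter (adjusted p = 0.0072, edgeR), where 484 of 16095 genes passed. It also passed without Gcg plate 1 (2.7e-05, with 419 of 7856 genes) and without Gcg plate 2 (0.013, with 226 of 8462 genes). The Gcg plates enter through the shared estimate of the spread. On the Gcg line 0 of 6 granins passed at 4 d (0.277% of genes), and Chgb was at -0.82 ± 0.47 (adjusted p = 0.80), but at -1.33 with an adjusted p of 0.027 without Gcg plate 1 and at -0.20 with an adjusted p of 1 without Gcg plate 2. Single cells carried much of these sums: 1 cell held 65.1% of the Chgb transcripts of Gcg plate 2 at 4 d, and 1 cell held 35.0% of them untreated.

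Per cell, the median Chgb of Tac1 cells at 4 d was 35 and 36 transcripts per 2000 on the plates with 3 conditions and 26 and 36 on the plates of 1 condition, against 107 and 82 untreated. The share of cells with at least 5 Chgb transcripts per 2000 averaged 37.3% at 4 d and 56.5% untreated. It was lower on 5 of 5 plates, by -19.2 ± 11.7 points (mean ± SD, n = 5). The exact sign-flip test over plates gave its smallest possible p, 0.063 (0.38 adjusted over the 6 granins). The share of cells with any Chgb transcript differed by -9.11 ± 10.3 points (exact sign-flip p = 0.25), and by -1.96 points in enteroendocrine-like clusters alone. With cells thinned to 1000 transcripts, the share with any transcript was lower on 5 of 5 plates for Chgb, Scg2 and Scg3 alike (exact sign-flip p = 0.063 each).

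The unnamed cells moved with this result, by unequal amounts. They made up 16.8% and 20.8% of the kept cells of Gcg plates 1 and 2 at 4 d, against 14.1% and 8.0% untreated, and 36.3% of those of the Gip plate, against 1.59%. They were 29.3% and 43.8% of the kept cells of Tac1 plates 1 and 2 at 4 d, against 2.94% and 6.25% untreated, and averaged 7.49 Chgb transcripts per 2000 in the Tac1 line, against 78.0 in enteroendocrine-like cells. On the Tac1 plates of 4 d alone, which hold no untreated cells, they were 13.3% and 4.44% of cells. The part of the unnamed cells in the Chgb change was not tested. The 5-gene nuclear RNA list summed to 36740 to 106800 CPM in the 4 Tac1 sums at 4 d, against 23960 and 29520 CPM untreated, to 52110 CPM at 4 d on the Gip plate, against 11350 CPM untreated, and to 31340 and 43460 CPM at 4 d on Gcg plates, against 15570 and 27650 CPM untreated. The goblet list stood at 15860 and 24470 CPM at 4 d on Gcg plates, against 2707 and 12730 CPM untreated. Without the unnamed clusters the log2 change of Chgb at 4 d was -0.78 over all plates (adjusted p = 0.39, edgeR) and -1.43 in the Tac1 line (adjusted p = 0.63), where plate 2 at 4 d drops out with 9 cells; this alternative was chosen after seeing the data.

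**Figure D3:**
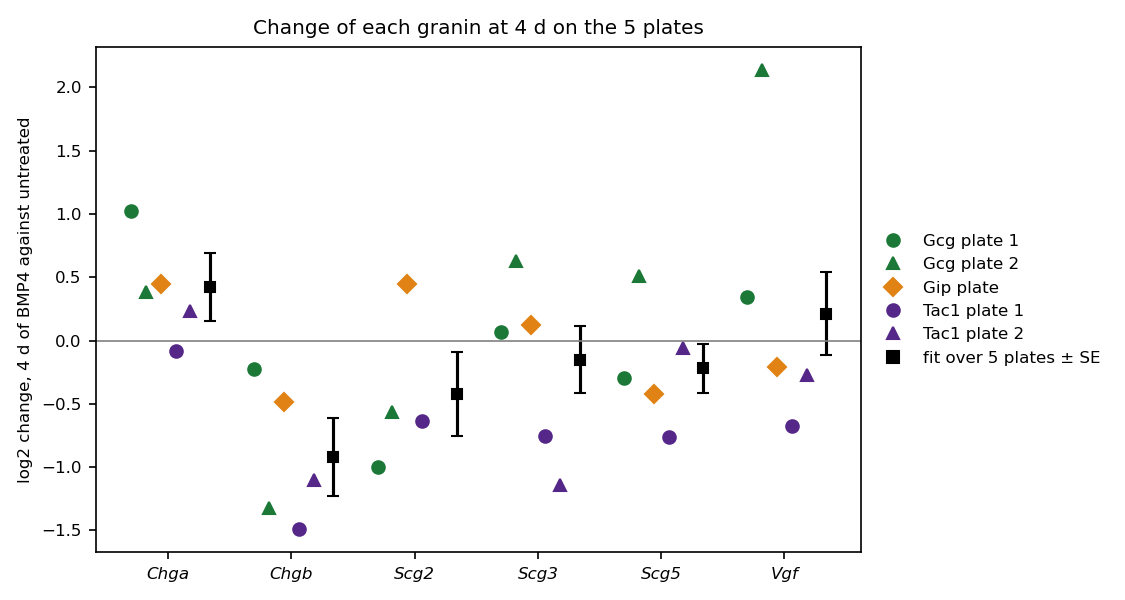
The log2 change at 4 d of BMP4 against untreated cells is plotted for each granin on each of the 5 plates (coloured points), with the fitted change over the 5 plates and its SE (black); Scg2 of Tac1 plate 2 is left out, with 0 and 1 transcripts. Chgb is the granin with all 5 plates on 1 side of 0, below it, and Vgf of Gcg plate 2 stands highest at 2.14.

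Chga did not follow Chgb. It was at 867 and 813 CPM at 4 d on Gcg plates, against 463 and 699 CPM untreated, at 285 CPM against 227 CPM on the Gip plate, and at 18731 and 23015 CPM against 22214 and 25057 CPM on the Tac1 plates. The Tac1 plates of 4 d alone had 17494 and 23422 CPM, within the range of the other Tac1 sums. Scaled by TMM factors, as in the tests, the log2 change of Chga was -0.08 on Tac1 plate 1 and 0.23 on plate 2. Its pooled log2 change at 4 d was 0.42 ± 0.27 (adjusted p = 0.51, edgeR). On the Gcg line it was 0.72 ± 0.39 (adjusted p = 0.77), and 1.04 with an adjusted p of 0.017 in enteroendocrine-like clusters alone.

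The ratio of Chga to Chgb was higher at 4 d than untreated on every plate. This ratio was looked at after the values of both genes had been seen, so its test is a description of a chosen pattern. In Tac1 cells there were 1.03 and 1.14 Chga transcripts per Chgb transcript at 4 d, and 1.14 and 1.28 on the plates of 1 condition, against 0.389 and 0.45 untreated. The ratio was 0.733 and 0.556 at 4 d on Gcg plates, against 0.307 and 0.169 untreated, and 0.160 against 0.0838 on the Gip plate. Over plates the log2 ratio was 1.33 ± 0.28 higher at 4 d (SD, n = 5, higher on 5 of 5), a 2.52-fold higher ratio, with the smallest exact sign-flip p that 5 plates allow, 0.063. At 24 h it was 0.26 ± 0.52 higher (n = 4, higher on 3 of 4, exact sign-flip p = 0.38).

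Enterochromaffin cells hold both chromogranins in large amounts and were looked for by Tph1, the enzyme that starts serotonin synthesis. Cells with at least 5 transcripts of Tph1 numbered 0 to 2 per sum on Gcg and Gip plates, yet held up to 36.0% of the Chga of a sum. The 1 such cell of the Gip plate at 4 d held 0% of the Chga. On Tac1 plates 1 and 2 they were 37.5% to 61.1% of cells and held 72.7% to 85.8% of the Chga. The Tac1 cells below this cut were not shown to be another cell type. After thinning, 99.65% of the 285 enteroendocrine-like cells of the Tac1 line had a Chga transcript. With the cells of at least 5 Tph1 transcripts left out on the Gcg and Gip plates, the log2 ratio was 1.51 ± 0.42 higher at 4 d (n = 5, higher on 5 of 5, exact sign-flip p = 0.063).

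Both chromogranins were also read within cells led by 1 hormone, over cells and with counting error only. Gip-led cells of the Gip plate averaged 2.14 Chgb transcripts per 2000 at 4 d (1.87 to 2.45; 104 cells), against 4.37 (3.82 to 4.97; 52 cells) untreated, while their Chga was 0.50 (0.373 to 0.656) against 0.423 (0.265 to 0.641). Unnamed cells were 36.3% of the Gip plate at 4 d, against 1.59% untreated, and averaged 0.927 Chgb transcripts, against 3.75 in enteroendocrine-like cells; their part in the Gip-led value was not tested. Sst-led cells of the Tac1 line, 21 of 23 at 4 d and all 23 untreated from plate 1, averaged 40.2 Chgb transcripts at 4 d, against 80.4 untreated, and 38.8 Chga transcripts against 38.3. Nts-led cells of the Gcg plates averaged 1.29 Chgb transcripts at 4 d (49 cells), against 4.08 untreated (13 cells), and 2.27 Chga transcripts against 3.0. These values show no spread between samples.

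**Figure D4:**
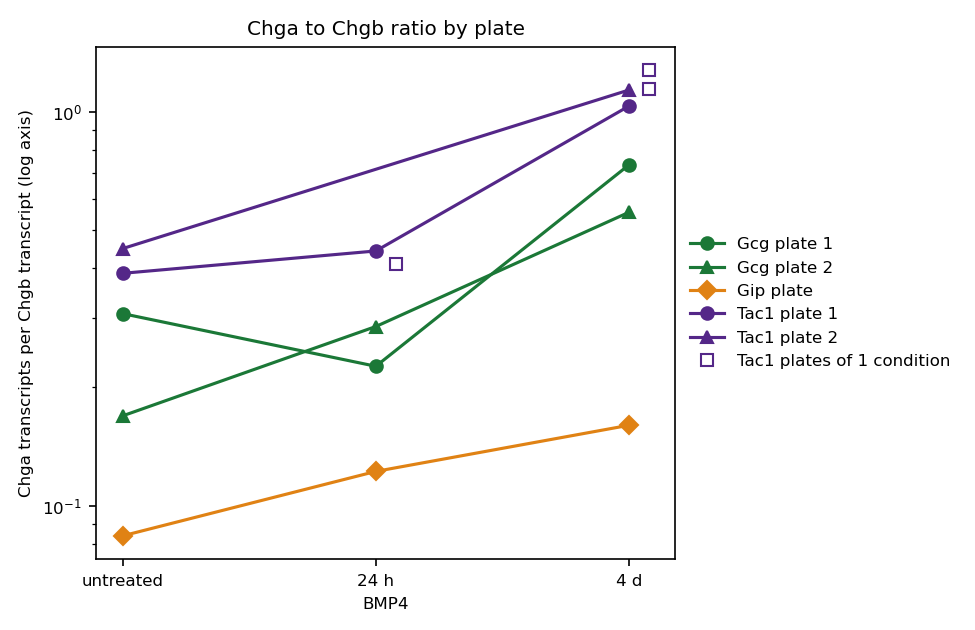
Chga transcripts per Chgb transcript (log axis) are plotted against BMP4 condition for each plate, with open squares for the Tac1 plates of 1 condition. The 5 lines all end higher at 4 d than untreated, from 0.160 on the Gip plate to 1.14 on Tac1 plate 2, and the Tac1 plates of 1 condition lie beside the other Tac1 plates.

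Scg2, the secretoneurin precursor, was at 546 and 1220 CPM at 4 d on Gcg plates, against 1197 and 2032 CPM untreated, but at 1912 CPM against 1532 CPM on the Gip plate. Its pooled log2 change was -0.42 ± 0.33 (adjusted p = 0.62, edgeR). On the Gcg line it was -0.77 ± 0.38 (adjusted p = 0.74). On the Tac1 plates Scg2 was at 98.5 and 0 CPM at 4 d (20 and 0 transcripts), against 173 and 9.59 CPM (80 and 1 transcripts) untreated, too few to give a fold on plate 2. The Tac1 plates of 4 d alone had 326 and 135 CPM, and on the second of them 1 cell held 85.0% of the Scg2 transcripts.

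Vgf had opposite directions on the Gcg and Tac1 plates at 4 d, in a difference that did not pass over all genes. It was at 33.6 and 110 CPM at 4 d on the Gcg plates, against 28.1 and 25.3 CPM untreated, and at 88.6 and 105 CPM on the Tac1 plates, against 160 and 163 CPM untreated. Both Gcg plates were higher and both Tac1 plates lower, but the value of 110 CPM rests on 19 transcripts. The Tac1 plates of 4 d alone had 91.7 and 236 CPM, of which the second was above the untreated plates. The log2 change was 1.25 ± 0.48 on the Gcg line (adjusted p = 0.65, edgeR) and -0.52 ± 0.49 on the Tac1 line (adjusted p = 0.68). The difference of the 2 responses was 1.77 ± 0.68 (adjusted p = 0.53), in a comparison where 0 of 6 granins and 0% of genes passed. Without Gcg plate 1 the Gcg change was 2.28 and the difference 2.82, and without Gcg plate 2 they were 0.40 and 0.95; none of these passed. In enteroendocrine-like clusters alone the Gcg change of Vgf was 1.47 (adjusted p = 0.0084, edgeR) and the difference 2.18 (adjusted p = 0.039), but there Tac1 plate 2 at 4 d drops out with 9 such cells, and the 1 Tac1 sum left is assumed to vary like the others.

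Scg3, the chromogranin tether, was at 137 and 261 CPM at 4 d on Gcg plates, against 143 and 189 CPM untreated, and at 362 CPM against 363 CPM on the Gip plate. On Tac1 plates it was at 187 and 124 CPM, against 356 and 355 CPM untreated, while the Tac1 plates of 4 d alone had 428 and 236 CPM. Its log2 change was 0.35 ± 0.39 on the Gcg line and -0.93 ± 0.43 on the Tac1 line (adjusted p = 0.95 and 0.36, edgeR). The 4 Tac1 sums at 4 d thus lay on both sides of the untreated values.

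Scg5, the convertase chaperone, was at 141 and 238 CPM at 4 d on Gcg plates, against 189 and 187 CPM untreated, at 347 against 508 CPM on the Gip plate, and at 231 and 352 CPM on Tac1 plates, against 442 and 470 CPM untreated. The Tac1 plates of 4 d alone had 326 and 303 CPM. The pooled log2 change was -0.22 ± 0.20 (adjusted p = 0.68, edgeR), and that of Scg3 was -0.15 ± 0.26 (adjusted p = 0.88). As CPM all 4 Tac1 sums of Scg5 at 4 d lay below the untreated Tac1 sums, but CPM are scaled to the summed transcripts and the tests to TMM factors, and on that scale the log2 change of Scg5 was -0.76 on Tac1 plate 1 and -0.06 on plate 2.

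At 24 h the granins of Gcg plates were, in CPM, Chga 401 and 501, Scg2 2080 and 1724, Scg3 293 and 162, Scg5 228 and 175, and Vgf 41.7 and 53.4. The Gip plate had Chga at 248, Scg2 at 1512, Scg3 at 362, Scg5 at 491 and Vgf at 43.0 CPM. On Tac1 plate 1 at 24 h, Chga was at 23635, Scg2 at 77.1, Scg3 at 289, Scg5 at 397 and Vgf at 111 CPM, and on the Tac1 plate of 24 h alone they were at 14793, 119, 270, 176 and 228 CPM. No granin passed at 24 h within the Gcg line (0.0722% of genes passed) or the Tac1 line (0.0241%), where the 24 h cells are the 1 sum of plate 1.

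Set beside the granins, a list of 19 other granule genes did hold changes at 4 d. The list was chosen with earlier results of these data known, so its counts are a description. Of 18 tested over all plates, 2 were higher and 3 lower (2.41% and 0.927% of all genes), and 0 passed at 24 h. The median log2 change of the 18 was 0.070 at 4 d. Pcsk1n, which encodes proSAAS, a granin-like inhibitor of prohormone convertase 1, was at 524 and 668 CPM at 4 d on Gcg plates, 602 CPM on the Gip plate and 729 and 618 CPM on Tac1 plates, against 41.9 and 117, 205, and 121 and 67.1 CPM untreated. It was higher on 5 of 5 plates, by log2 2.76 ± 0.31 (adjusted p = 2.0e-04, edgeR). Syt7, a calcium sensor of granule fusion, was higher by log2 2.10 ± 0.47 (adjusted p = 0.020), a call lost without Tac1 plate 1 (0.15).

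The 3 lower genes were Rab3c, a small GTPase of granules (log2 -1.49 ± 0.29, adjusted p = 0.0093, edgeR), Ptprn2, a granule membrane protein (-0.94 ± 0.23, adjusted p = 0.032) and Pam, the peptide-amidating enzyme (-0.77 ± 0.19, adjusted p = 0.035). Each was lower on 5 of 5 plates, although Rab3c had 0 to 13 transcripts per sum at 4 d and untreated on the Gcg and Gip plates. Without the unnamed clusters, which also drops Tac1 plate 2 at 4 d, all 3 missed the threshold, Rab3c at -1.75, Ptprn2 at -0.78 and Pam at -0.78 (adjusted p = 0.060, 0.185 and 0.084, edgeR). Without Tac1 plate 1 they missed it too, at -1.29, -0.84 and -0.74 in the same order (adjusted p = 0.11, 0.17 and 0.17). Between the untreated lines, 2 of 19 were higher and 9 lower in Gcg than in Tac1 cells (8.79% and 7.66% of all genes). Slc18a2, the vesicular monoamine transporter that fills granules with serotonin, was at 1.17 and 0 CPM (1 and 0 transcripts) on untreated Gcg plates, against 184 and 307 CPM on untreated Tac1 plates (adjusted p = 1.8e-09, edgeR). Rab3c was at 11.7 and 19.3 CPM against 891 and 767 CPM, and Ptprn, a granule membrane protein, at 16.4 and 35.7 CPM against 857 and 1161 CPM (adjusted p = 3.7e-10 and 1.8e-09, edgeR). Scgn, the calcium-binding secretagogin, was higher by log2 3.47 ± 0.53 (adjusted p = 2.1e-05, edgeR; 0.24 with DESeq2); it was 2.90 without Tac1 plate 2, and as that plate had 0 transcripts of Scgn untreated, no fold can be given without Tac1 plate 1.

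Correlations of log2 CPM over the 17 sums of at least 10 cells describe mostly the reporter lines, since sums of a line lie together, and carry no test. Pearson's r was 0.93 between Chga and Chgb, 0.82 between Chga and Vgf, -0.87 between Chga and Scg2, and 0.66 between Scg3 and Scg5. Among 4920 genes of log2 CPM 5 or more, the most alike to Chga were Gapdh (r = 0.99), Lmx1a (0.99) and Tph1 (0.98). Those of Chgb were Rpp25 (0.98), Rab3c (0.98) and Tac1 (0.97), and those of Scg2 were Tmem206 (0.95) and Slc5a1 (0.94). For Scg3 they were Cd44 (0.84), Fam122a (0.82) and Cyhr1 (0.81), for Scg5 Fxyd6 (0.85), Vldlr (0.83) and C2cd4b (0.83), and for Vgf Rfc1 (0.90), Fsd1l (0.89) and Foxn3 (0.89).

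Within a plate, cells rich in Chga tended to be rich in Chgb on Tac1 plates. Spearman's rho over enteroendocrine-like cells thinned to 2000 transcripts was 0.55 in untreated cells of Tac1 plate 1 (66 cells), 0.36 at 24 h on that plate (50 cells), 0.52 on the Tac1 plate of 24 h (43 cells) and 0.38 on the second Tac1 plate of 4 d (40 cells). On Gcg and Gip plates it ran from -0.037 to 0.32 over 7 sums, where counts per cell are low.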

How the data were processed

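SORT-seq transcripts of reporter-sorted single cells were measured on 8 plates of 384 wells. The authors deposited expected counts per gene and well, corrected for identifiers hit more than once. Per the submitters' processing notes, the aligner was BWA 0.6.2-r126 and the build mm10; which program counted the reads, with what annotation and whether by strand, is not given in the sources used. With 4096 identifiers assumed, undoing the correction turned 100% of the values above 0 into whole numbers (within 0.01); the labels describe identifiers of 4 bases, which would allow fewer. The same 384 well barcodes are used on all plates by design. Doublets were not called, since wells were filled by single-cell sorting.

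Deposited expected counts of cells with at least 2000 transcripts were summed by plate and condition (at least 10 cells per sum, spike-ins and mitochondrial genes left out) and rounded. edgeR 4.0.16 (R 4.3.3) filtered with filterByExpr, normalised with TMM and tested with its quasi-likelihood F test, with plate as a block and condition, or condition within line, as terms. The Gip line entered the fits but had no test of its own. The untreated lines were compared over 5 sums. P-values were adjusted by Benjamini-Hochberg over all genes tested. Plates hold their conditions side by side by design and so pair the samples. Deviations from the mean of each condition correlated at 0.365 to 0.731 in all 13 pairs of sums from 1 plate. Reporter line was left in these deviations, so the correlations cannot show an effect of plate apart from line.

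Cells were thinned to 2000 transcripts (995 of 1006 cells) for shares, with Wilson 95% intervals. Clusters came from Leiden (scanpy 1.11.5, leidenalg 0.10.2) without granins, hormones or BMP targets; a cluster of at least 3 enterocyte or goblet markers among its top 20 genes took that name, and one whose enteroendocrine markers summed to at least 5000 CPM was called enteroendocrine-like, a threshold set after seeing the data. A count of 0 has a floor of 3 counts. Intervals and floors cover counting error only. The scripts were tested on simulated data. DESeq2 1.42.0 was an alternative, and the others tried were RLE factors, no filter, cell minimums of 1000 and 3000, thinned cells, enteroendocrine-like clusters alone, hormones out of the totals, 5 cells per sum, no plate block and each plate left out.

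The granins, the granule list and the markers were chosen with earlier results of these data known. Named genes are the 6 granins, granule genes that passed with up to 4 more by smallest p, and the 3 genes most alike to each granin, of which 1 for Scg2 is not reported here. Vgf has no promoter entry in the RefSeq table used.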

Additional observations from a re-analysis of the deposited data

Results flagged for a closer look

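Among 20 sets of 4 or 5 plates examined (levels or changes of the granins and of the Chga to Chgb ratio), 1 held a value whose gap to the nearest other exceeded Dixon's 95% critical value, as about 1 in 20 would by chance: Vgf on the second Tac1 plate of 4 d alone, at log2(CPM + 1) of 7.89 (236 CPM), against 88.6 to 105 CPM on the other 3 Tac1 sums at 4 d.

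On the plates with 3 conditions, and on the TMM scale of the tests, Scg3 and Vgf were higher on both Gcg plates and lower on both Tac1 plates at 4 d. For Scg3 the log2 change was 0.07 and 0.63 on the Gcg plates and -0.75 and -1.15 on the Tac1 plates, while as CPM Gcg plate 1 had 137 at 4 d, against 143 untreated. Of the Tac1 plates of 4 d alone, the first had 428 CPM of Scg3 and the second 236 CPM of Vgf, each above the untreated Tac1 plates. The difference of the log2 changes (Gcg minus Tac1) was 1.28 ± 0.58 for Scg3 (adjusted p = 0.56) and 1.77 ± 0.68 for Vgf (adjusted p = 0.53, edgeR), so neither passed over all genes.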

How the results depend on the processing

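Recomputed summary results stayed alike 98 times under the alternatives and 50 times with a plate left out, moved 6 and 4 times, and turned round 1 time. Alike meant a near count of granins passing, an Scg2 value by leading hormone within its interval, or for the ratio the same direction only. The tally includes the tests of shares, where a count of 0 was fixed since 5 plates give no p below 0.063. It also includes the 24 h ratio without Tac1 plate 2, a plate that ratio never held. None of the 6 granins passed after BMP4 in the fits as reported. The count was 1 over all plates at 4 d with DESeq2 (371 of 8308 genes) and with no filter on low counts (653 of 16095 genes), each time Chgb. On the Tac1 line it was 1 with no filter (Chgb, where 484 of 16095 genes passed). No count is given for the Tac1 line in enteroendocrine-like clusters alone, where 1 Tac1 sum at 4 d is left. The count was 2 on the Gcg line at 4 d in enteroendocrine-like clusters alone (Chga, Vgf), where 392 of 7834 genes passed. In those clusters, with 1 Tac1 sum at 4 d, 1 granin, Vgf, differed between the Gcg and Tac1 responses (115 of 7834 genes). With a plate left out the counts ran from 0 to 1 in each of the 3 comparisons at 4 d, and from 5 to 6 between the untreated lines. The Tac1 change at 24 h could not be fitted without Tac1 plate 1.

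These values turned round, none passing a test. The pooled Scg3 change at 4 d was 0.18 in enteroendocrine-like clusters and 0.081 without unnamed clusters, and -0.35 to 0.024 with a plate left out (0.0024 without Tac1 plate 1). Vgf ran from -0.21 to 0.48 with a plate left out. On the Gcg line Scg5 was -0.16 with thinned cells and -0.28 to 0.51 with a plate left out. On the Tac1 line Chga was -0.079 with no filter and -0.073 to 0.22 with a plate left out, and Vgf was 0.78 with thinned cells. The share of cells with at least 5 transcripts moved by -5.38 points for Chga and 0.15 for Scg3, and with a plate left out the share with any Chga by -5.85 to 5.39 and with any Vgf by -0.035 to 6.42. The Chga to Chgb ratio at 24 h was -0.15 (log2) with thinned cells, and 0.096 to 0.50 with a plate left out, while at 4 d it kept to 1.23 to 1.43. The causes were not tested.

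Without the plate block no granin call changed, and the pooled Chgb change was -0.97. With no block and the Tac1 plates of 1 condition added, the Tac1 changes were -0.080 for Chga and 0.36 for Scg2. Genes called in all ran, over every alternative, from 6 to 46 at 24 h (8 as reported) and 75 to 653 at 4 d (277), from 4 to 80 and 6 to 392 on the Gcg line (6 and 23), from 0 to 19 and 0 to 484 on the Tac1 line (2 and 167), from 0 to 115 for the Gcg minus Tac1 response (0) and from 610 to 1759 between the untreated lines (1508). With no filter the median over all genes lay at 0.28 between the untreated lines, and without Tac1 plate 1 at 0.36, against 0.09 as reported. Vgf rested on at most 74 transcripts per sum and, in Tac1 cells, Scg2 on at most 80.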
